A study of Mus musculus with 6 samples.

Results

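Chromatin accessibility at the MHC class II genes and at Ciita, the gene of their transcriptional co-activator, was examined in murine MLL-AF9 leukemia stem cells (LSCs) with and without mycophenolate mofetil (MMF), an inhibitor of guanine nucleotide synthesis. The members were 7 genes, Ciita, H2-Aa, H2-Ab1, H2-Eb1, H2-DMa, H2-DMb1 and Cd74. All ATAC-seq peaks that overlapped a gene body or the 20000 bp on either side of it were taken, with gene positions from GENCODE M21 (mm10). Merging overlapping peaks of the 6 deposited lists gave 55 such regions of 112852 regions in all, and 27 of the 55 held a peak in every list. Because windows overlapped, the genes formed 4 loci. Ciita lies on chromosome 16 (10480059 to 10528418, plus strand) and Cd74 on chromosome 18 (60803848 to 60812652, plus strand). The other genes lie on chromosome 17, with H2-DMa (34119541 to 34139101, plus) next to H2-DMb1 (34153072 to 34160230, plus), and H2-Ab1 (34257689 to 34269419, plus) next to H2-Aa (34282744 to 34287823, minus) and H2-Eb1 (34305867 to 34316674, plus).

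The cells were L-GMPs, leukemic granulocyte-macrophage progenitors, which the labels call AML LSCs of WT genotype. In the study's model, L-GMPs carry the MLL-AF9 fusion introduced by a retrovirus, and both groups share it. Both groups were cultured with mouse IL3, and the 3 MMF samples received the drug, for 24 h per the labels, before sorting whereas the 3 Control samples did not. The study's texts differ on the dose and on the length of exposure, so no dose is given. Neither the labels nor the methods say whether samples of a group came from separate mice or cultures, so the p-values measure only the spread between these samples.

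MHC class II molecules are pairs of an alpha and a beta chain that present peptides from endocytosed material to CD4+ T cells. H2-Aa and H2-Ab1 encode the chains of I-A, and H2-Eb1 encodes the beta chain of I-E. Cd74 encodes the invariant chain, which occupies the groove of new class II molecules and steers them to endosomes, and H2-DMa and H2-DMb1 encode the chains of H2-DM, which helps to exchange the invariant chain remnant for peptide. CIITA does not bind DNA itself. It is recruited by RFX and NF-Y bound to the X and Y boxes of class II promoters, and its own gene is read from several alternative promoters. Professional antigen-presenting cells make class II constitutively, and many other cells do so after interferon gamma.

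Lists held 58496 to 63911 peaks in Control and 80893 to 86556 in MMF. Fold enrichment is the ratio of reads over a peak's summit to the local background. The rank used here is the percentile rank of a peak by fold enrichment within its own list, from 0 for the weakest to 100 for the strongest. The reads over each summit and its background were also solved from the fold enrichment and the p of the peak, and summit reads were divided by the genome-wide background of the sample, which ranged from 0.620 to 0.909 reads. The median summit held 14 to 19 reads, so single peaks rest on few reads. A peak is a call, and absence of a peak says only that none passed the caller's threshold.

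Sequences of class II promoters are shown first, since X and Y boxes define the control elements over which the promoter peaks lay. The RefSeq promoter table for GRCm38.p6 held 4 of the 7 genes. The 150 bases before the annotated starts of H2-Aa (chr17:34287824-34287973, minus strand) and H2-Eb1 (chr17:34305717-34305866, plus strand) are shown, with matches to an X box consensus and to the NF-Y core of the Y box, CCAAT, in capitals on either strand, and 30 bases around the X box match are shown for H2-DMb1 (chr17:34153086-34153115, plus strand).
H2-Aa: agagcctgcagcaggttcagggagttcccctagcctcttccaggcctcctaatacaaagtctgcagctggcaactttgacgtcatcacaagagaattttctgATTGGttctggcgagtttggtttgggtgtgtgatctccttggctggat
H2-Eb1: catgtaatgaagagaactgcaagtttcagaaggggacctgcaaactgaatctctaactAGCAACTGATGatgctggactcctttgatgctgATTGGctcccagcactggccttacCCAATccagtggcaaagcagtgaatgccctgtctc
H2-DMb1: aggtttacctAGTAACTGATGatgctaggc
In H2-Eb1 the X box match ended 22 bases before the nearer CCAAT match, which reads on the minus strand. H2-Aa held a CCAAT match 44 to 48 bases before its start and no match to this X box consensus. The H2-DMb1 match lay 85 to 95 bases before the start in the RefSeq table, and past the GENCODE start (34153072) used elsewhere.

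Within 200 bp centred on the summits, the X box consensus was found on either strand in 7 of the 55 regions (12.7%) and in 4.26% of all 112852 regions. Of the 11 regions at a member promoter, meaning within 1000 bp of an annotated start, 5 held it. They were the peaks at H2-Ab1 and H2-DMb1, the stronger peak at H2-DMa and both peaks at H2-Eb1. CCAAT was found in 18 of the 55 regions (32.7%) against 23.5% of all regions, and in 8 of the 11 promoter regions. Of 32851 promoters of the RefSeq table, placed by starts and not by summits, 5.33% held the X box consensus and 37.4% CCAAT. The PU.1 core GAGGAAGT was found in 2 regions (3.64%) against 8.28%, and an interferon-stimulated response element consensus was found in none of the 55 against 2.64% of all regions. In the RefSeq table promoters the shares of these 2 motifs were 3.20% and 3.44%. The other motifs searched were those of C/EBP, GAS (the interferon gamma activated site), the E box and CTCF. They were found in 4 (7.27%), 1 (1.82%), 3 (5.45%) and 7 (12.7%) of the 55 regions. Their shares of all regions were 15.0%, 6.17%, 4.50% and 14.2%. The X and Y box matches did not overlap in the printed stretches. A match is a description of the letters and not of a bound factor.

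The MMF lists held more peaks in the class II windows, but fewer per peak listed. The windows held 38, 36 and 35 peaks in the Control lists and 42, 44 and 40 in the MMF lists, a mean of 36.3 ± 1.53 (SD, n = 3) against 42.0 ± 2.0 (p = 0.1 in a two-sided exact permutation test, which cannot go lower with 3 samples against 3). Groups did not overlap, but MMF lists were longer throughout. Per 10000 peaks of the same list, the windows held 5.95, 5.80 and 5.98 peaks in Control and 4.85, 5.11 and 4.94 in MMF, so that their share was lower in every MMF list (p = 0.1, exact). With all lists cut to the length of the shortest, the means were 34.3 and 34.0 peaks (p = 1, exact).

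Presence of peaks gave 1 gained region, with a peak in all 3 MMF lists and in no Control list, out of 55, whereas 6.0% of all regions were gained. None of the 55 was lost, meaning the opposite pattern, against 0.182% of all regions. Of the 27 regions with a peak in every list, none was called by limma on normal scores of the ranks, where 1.44% of all 41182 such regions were called higher and 0.425% lower. In summit reads, limma called 1 region higher (18.6% of all regions) and none lower (0.969%), at a Benjamini-Hochberg adjusted p of 0.05. The median log2 difference in summit reads per unit of background, MMF minus Control, was 0.01 over the 27 regions and 0.17 over all 41182, so that the median class II region lay below the median of all regions. With each sample centred on the median of its shared regions, 1 of the 27 was higher (6.90% of all) and 7 were lower (13.9% of all). The centred median log2 difference was -0.35 over the 27 regions and -0.19 over all 41182, so a typical region did not lie at 0. Mean percentile ranks were higher with MMF in 70.4% of the 27 regions (median difference 2.11 points) and in 67.6% of all 41182 (4.07 points). Ranks in all 3 MMF lists lay above all 3 Control lists for 3 of the 27 (25.0% of all) and below them for none (5.12%). For summit reads per unit of background the counts were 2 above (29.1% of all) and 3 below (7.68%).

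**Figure D1:**
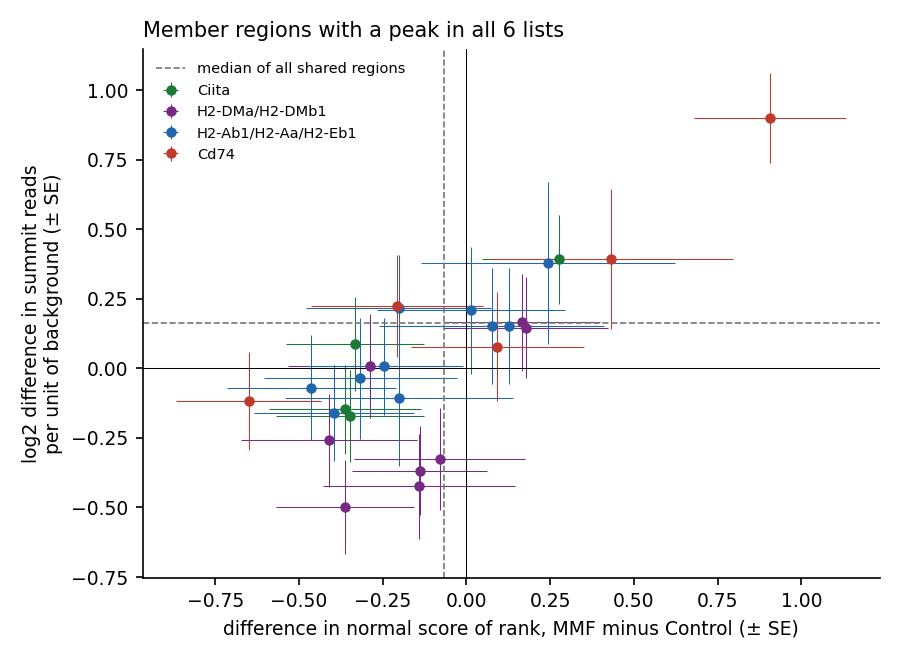
Difference in normal score of rank (x axis) and log2 difference in summit reads per unit of background (y axis), MMF minus Control with SE, for the 27 member regions with a peak in all 6 lists, coloured by locus. Dashed lines give the medians of all 41182 such regions; a Cd74 region at 0.91 and 0.90 lies apart from the other 26.

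The clearest difference lay inside Cd74, the gene of the invariant chain. A region at 60804916 to 60805240 on chromosome 18, whose summit lay in an intron 1252 bp past the start, held 30, 24 and 26 summit reads in the Control lists and 65, 52 and 50 in the MMF lists. Per unit of background these were 41.2, 34.7 and 41.9 in Control against 71.5, 73.7 and 73.9 in MMF, so every MMF list lay above every Control list. The log2 difference was 0.90 ± 0.16 (SE), a 1.87-fold rise (limma, adjusted p = 0.00504). Centred on the median of shared regions it was 0.55 ± 0.16 (limma, adjusted p = 0.0402). By rank the region stood at 28.3, 17.4 and 28.8 in Control and at 59.3, 65.9 and 67.3 in MMF, a difference of 0.91 ± 0.23 normal score units that missed the threshold (limma, adjusted p = 0.0759). Of 4 macrophage markers, Csf1r alone also had promoter ranks higher in every MMF list, with no peak in Control replicate 3. With that missing peak set to rank 0, Csf1r was not called (0.71 ± 0.17 score units, limma adjusted p = 0.182). Its part in the Cd74 difference was not tested.

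At the neighbouring peaks inside Cd74 the groups overlapped. A region 317 bp further into the gene, with its summit 2043 bp past the start, held 53, 54 and 46 reads in Control and 76, 46 and 41 in MMF (log2 difference -0.12 ± 0.18, limma adjusted p = 0.692). This region held 1 of the PU.1 matches and had the largest fall in rank of the locus, from 69.3 ± 3.42 to 60.4 ± 6.40 (SD, n = 3; limma adjusted p = 0.132). A further region with its summit 3613 bp past the start held 47, 32 and 33 reads in Control and 56, 41 and 48 in MMF (log2 difference 0.23 ± 0.18, limma adjusted p = 0.435). A comparison within each list, chosen after these values were seen, needs no scaling between samples. It reuses the summit reads by which the first region was called, so it is a description and not separate support. The ratio of summit reads of the first region to the second was 0.566, 0.444 and 0.565 in Control and 0.855, 1.13 and 1.22 in MMF (p = 0.1, exact permutation test, the lowest value it can give), and its ratio to the region at 3613 bp was 0.638, 0.750 and 0.788 against 1.16, 1.27 and 1.04 (p = 0.1, exact). The local background under the first region was 6.83, 6.33 and 6.72 times the genome-wide background in Control and 7.54, 6.93 and 6.90 times in MMF.

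**Figure D2:**
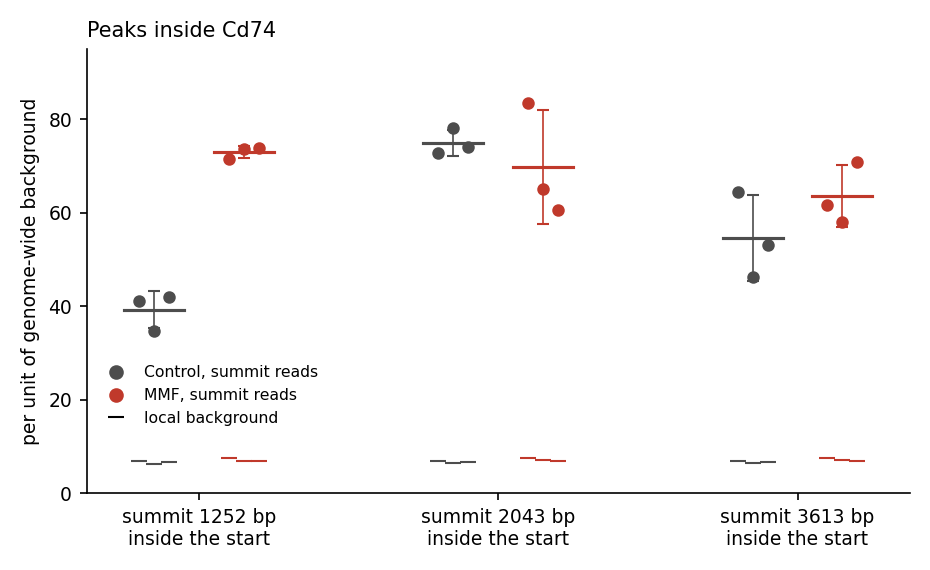
Summit reads (points, with mean and SD of 3 lists) and local background (dashes) per unit of genome-wide background for the 3 regions with a summit inside Cd74, by distance of the summit from the start. The region at 1252 bp has Control values of 34.7 to 41.9 and MMF values of 71.5 to 73.9, while the groups overlap at the other 2.

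No list held a peak within 1000 bp of a Cd74 start. The nearest peak began 1068 to 1144 bp inside the gene from its main start in every list. Each list held 6 peaks in the Cd74 window. Outside the gene, a region 8554 bp upstream held 11, 6 and 7 reads in Control and 13, 14 and 8 in MMF, with overlapping groups (limma adjusted p = 0.314). A weak region downstream of Cd74, in an intron of Tcof1, the gene of a nucleolar protein, held 11, 13 and 10 reads in Control, 10 and 6 in MMF replicates 1 and 2, and no peak in MMF replicate 3.

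Ciita showed a peak at only 1 of its groups of annotated starts. Basic transcripts start at 10480059 and 10480164, at 10488279, and at 10489781 and 10489783, and the peak (10487716 to 10488430) had its summit 237 bp upstream of the middle start. The nearest peak to the most upstream starts was at least 7552 bp away and that to the most downstream starts at least 1351 bp away, in every list. The promoter peak held 14, 12 and 10 reads in Control and 22, 16 and 15 in MMF, or 17.6 ± 1.55 against 23.0 ± 1.06 per unit of background (SD, n = 3). Groups did not overlap, yet the log2 difference of 0.39 ± 0.16 was not called (limma, adjusted p = 0.117) and fell to 0.04 on centring. Its rank was 64.4, 51.4 and 44.8 in Control and 75.3, 67.4 and 70.3 in MMF, again without overlap, and the promoter fit across 11704 genes did not call it (difference 0.53 ± 0.22 score units, limma adjusted p = 0.379). In the fit of region scores, across the 41182 regions with a peak in every list, the same peak differed by 0.28 ± 0.23 (limma adjusted p = 0.498). In the promoter fit 0.0940% of genes were called higher and 0% lower, and none of the 5 member genes tested was called. Of the 5, 1, Ciita, had an unadjusted limma p under 0.05, as did 11.7% of all 11704 genes.

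Further into Ciita, 2 intronic peaks were seen in MMF lists only, each in 2 of the 3. Peaks in MMF lists and in no Control list were found for 31.3% of all regions and for 11 of the 55 member regions (20.0%). The peak at 10496061 to 10496357 held 7 reads in MMF replicates 1 and 3, and that at 10522910 to 10523076 held 10 and 11 reads in MMF replicates 1 and 2. Another intronic region at 10521262 to 10521569, where Ciita overlaps Dexi on the opposite strand, held 10, 11 and 11 reads in Control and 14, 12 and 12 in MMF, and its scaled values overlapped. The strongest peaks of the window belonged to neighbouring genes, with 59 to 87 reads at the start of Dexi and 56 to 68 at that of Clec16a. The Clec16a peak had the largest fall in rank of the locus, from 76.1 ± 2.97 to 74.2 ± 5.88 (SD, n = 3), and after centring its summit reads were lower by limma (log2 difference -0.50 ± 0.16, adjusted p = 0.0481).

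H2-Ab1 and H2-Eb1, which encode beta chains of I-A and I-E, carried promoter peaks whose ranks overlapped between the groups. At H2-Ab1 (34263025 to 34263505 on chromosome 17, summit 59 bp upstream of the start) summits held 38, 35 and 29 reads in Control and 40, 34 and 40 in MMF. Its rank was 79.7, 79.4 and 74.5 in Control and 76.8, 73.4 and 85.2 in MMF, a mean difference of 0.633 percentile points (limma on the promoter scores, adjusted p = 0.934). The score difference was 0.07 ± 0.22 in the promoter fit and, with the opposite sign, -0.25 ± 0.23 in the fit of region scores (limma adjusted p = 0.559). H2-Eb1 had 2 promoter peaks. The nearer (34305650 to 34305936, summit 99 bp upstream, over the X and Y box matches shown above) held 30, 18 and 23 reads in Control and 29, 17 and 28 in MMF, and the other (34304846 to 34305281, summit 903 bp upstream) held 19, 24 and 22 against 33, 20 and 29. Both pairs of groups overlapped (log2 differences -0.11 ± 0.24 and 0.15 ± 0.21, limma adjusted p = 0.802 and 0.659).

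When the best promoter peak of each member gene was compared, that of H2-Aa had the lowest rank. The peak (34287766 to 34288023, summit 79 bp upstream) held 11, 11 and 10 reads in Control and 17 and 15 in MMF replicates 1 and 2, and MMF replicate 3 had no peak there. Its ranks were 26.0, 42.7 and 32.1 in Control and 47.1 and 47.6 in those MMF lists. Since a list lacked the peak, the promoter fit did not include it, and with missing peaks set to rank 0 no member was called.

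Away from the promoters, the peak of highest mean rank in the I-A and I-E locus lay at 34257400 to 34258118, over the annotated beginning of the H2-Ab1 gene body and with its summit 5433 bp upstream of the start used above, with ranks of 95.9, 86.3 and 80.4 in Control and 97.4, 91.7 and 86.3 in MMF (limma adjusted p = 0.914). The largest rise in rank of the locus was in an exon of H2-Ob, which encodes a chain of the H2-DM modulator H2-O (34248582 to 34249081). There the ranks were 89.0, 59.1 and 50.7 in Control and 73.1, 84.9 and 85.2 in MMF, so that Control replicate 1 was the highest of all (limma adjusted p = 0.734). The largest fall was at 34249845 to 34250197 in an intron of the same gene, from 52.7 ± 8.95 to 49.7 ± 5.16 (limma adjusted p = 0.302). A weak region between H2-Aa and H2-Eb1 (34295978 to 34296364) had a peak of 8 reads in Control replicate 2 alone among Control lists, and peaks of 18, 13 and 11 reads in MMF.

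The H2-DM genes, whose product loads peptide, held the member promoter peak of highest mean rank. At the downstream coding starts of H2-DMa (34135241 to 34135906, summit 103 bp upstream) summits held 127, 109 and 112 reads in Control and 147, 92 and 93 in MMF, with ranks of 97.0, 97.9 and 98.2 against 98.5, 92.5 and 95.8. The groups overlapped, and the rank fell by 2.09 percentile points on average, the largest fall of its locus (limma on the region scores, adjusted p = 0.373). The score difference of this peak was -0.41 ± 0.26 in that fit and -0.31 ± 0.29 in the promoter fit (limma adjusted p = 0.727). After centring, its summit reads were lower (log2 difference -0.61 ± 0.17, limma adjusted p = 0.0343). At H2-DMb1 (34152821 to 34153457, summit 46 bp past the start) ranks were 79.8, 82.3 and 80.4 in Control and 93.6, 85.5 and 85.2 in MMF. These did not overlap, and the promoter fit did not call them (0.52 ± 0.24 score units, limma adjusted p = 0.448). In the fit of region scores the H2-DMb1 peak differed by 0.17 ± 0.23 (limma adjusted p = 0.704). Its summits held 27, 25 and 23 reads in Control and 45, 26 and 26 in MMF, so that MMF replicate 1 stood above the others. The 36.8 ± 0.526 and 41.6 ± 6.89 reads per unit of background overlapped.

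An upstream start of H2-DMa lies beside that of Brd2, a BET-family reader of acetylated histones, and the broad open stretch there could not be assigned to either gene. The region over both starts (34122235 to 34122911) held 108, 102 and 89 reads in Control and 91, 103 and 74 in MMF over a local background of 12.7 to 20.4 reads, and its ranks were low (27.3, 27.6 and 19.2 against 20.1, 47.6 and 33.7). It had the largest rise in rank of the locus (9.10 percentile points), yet its normal score among shared regions differed by -0.08 ± 0.26 (limma adjusted p = 0.878). Its summit reads had a log2 difference of -0.32 ± 0.18 (limma adjusted p = 0.256). A region further along Brd2 (34118943 to 34119973), held 137, 125 and 116 reads in Control and 125, 103 and 76 in MMF. Per unit of background all 3 MMF lists lay below all 3 Control lists, at 132 ± 17.5 against 185 ± 3.91, and the log2 difference of -0.50 ± 0.17 just missed the threshold (limma adjusted p = 0.0636) and passed it after centring (-0.85 ± 0.16, adjusted p = 0.0162). All 7 regions that were lower after centring lay in the Ciita and H2-DM windows, at the Dexi, Clec16a and H2-DMa promoters, at 3 places around the Brd2 start and at 34101547 to 34102082, with adjusted p of 0.0162 to 0.0489. Each held at least 42 reads in every list, and the centred median log2 difference of all 41182 regions was -0.19. A further region at 34133309 to 34133616 lay over a pseudogene, Gm20493, inside H2-DMa, where reads could belong to a related copy.

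**Figure D3:**
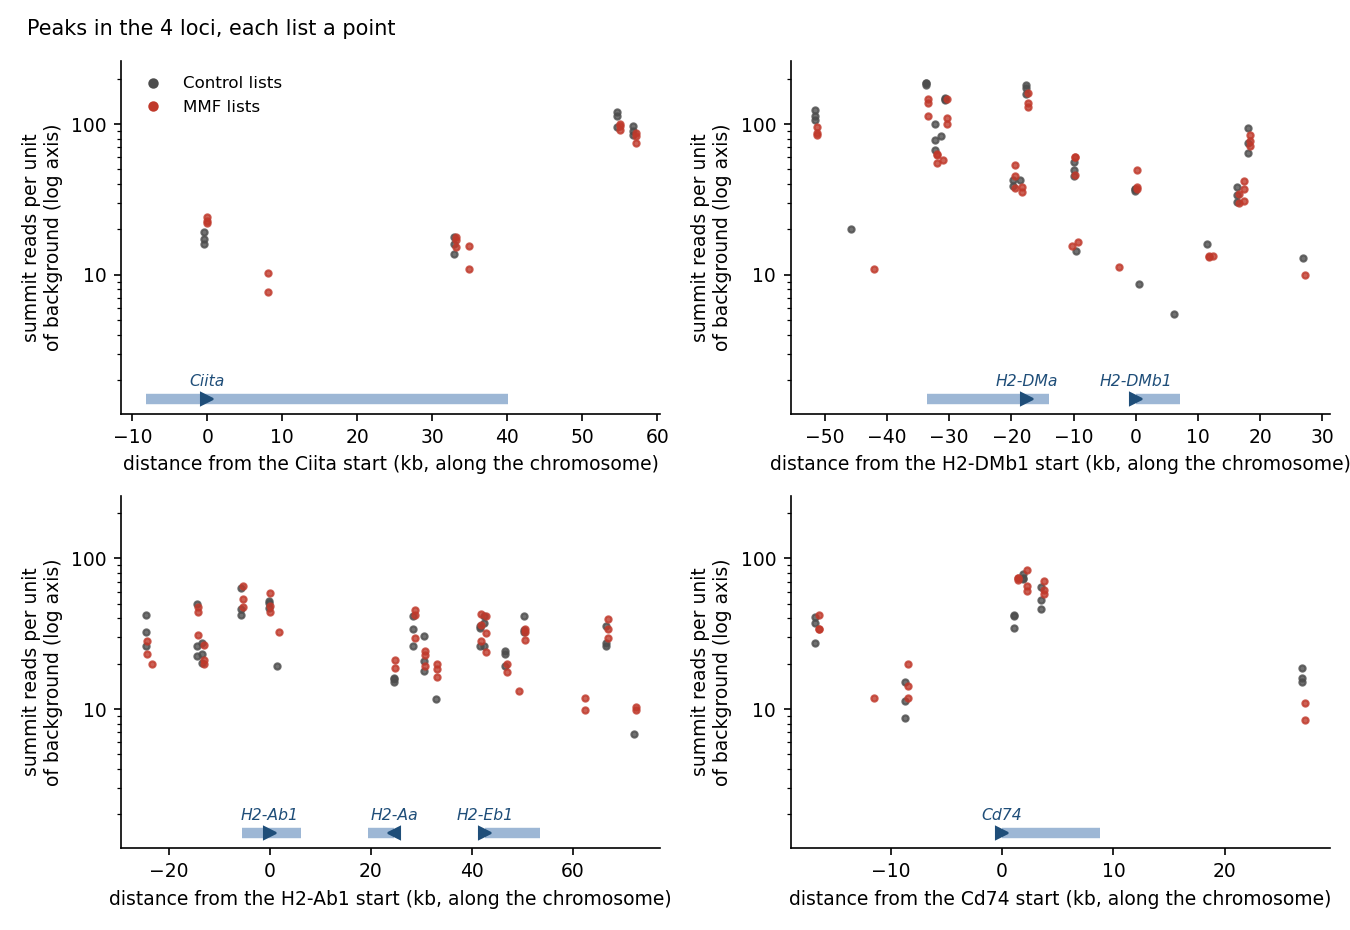
Summit reads per unit of background (log axis) for every peak in the 4 loci against distance in kb from a reference start, with Control and MMF lists as separate points and gene bodies as bars with an arrowhead at the start used. Values above 100 are seen around the Brd2 and H2-DMa starts, at the left edge of the H2-DM panel and at Dexi; the Cd74 panel shows the separated region just inside the gene.

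The gained region lay 10059 bp past the end of H2-DMb1, between genes (chr17:34170289-34170517). It held 38, 26 and 21 reads in the MMF lists, or 36.6 ± 5.38 per unit of background (SD, n = 3), at ranks of 46.9, 39.8 and 33.2. Its sequence on the plus strand is printed because it was the single gained region, and none of the motifs searched was found within 200 bp centred on its summit.
Gained region: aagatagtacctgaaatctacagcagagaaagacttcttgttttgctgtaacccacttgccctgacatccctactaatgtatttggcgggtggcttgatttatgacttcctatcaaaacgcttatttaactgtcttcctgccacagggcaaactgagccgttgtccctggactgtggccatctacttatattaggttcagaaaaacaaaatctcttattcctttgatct
A region with a peak in every list began 97 bp further on (34170615 to 34171512). That region held 69, 52 and 40 reads in Control and 65, 60 and 52 in MMF, with a log2 difference of 0.01 ± 0.19 (limma adjusted p = 0.982). The gained peak thus lay beside a stretch with peaks in all Control lists. Without Control replicate 2, or without any 1 of the MMF replicates, 2 regions rather than 1 were gained.

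**Figure D4:**
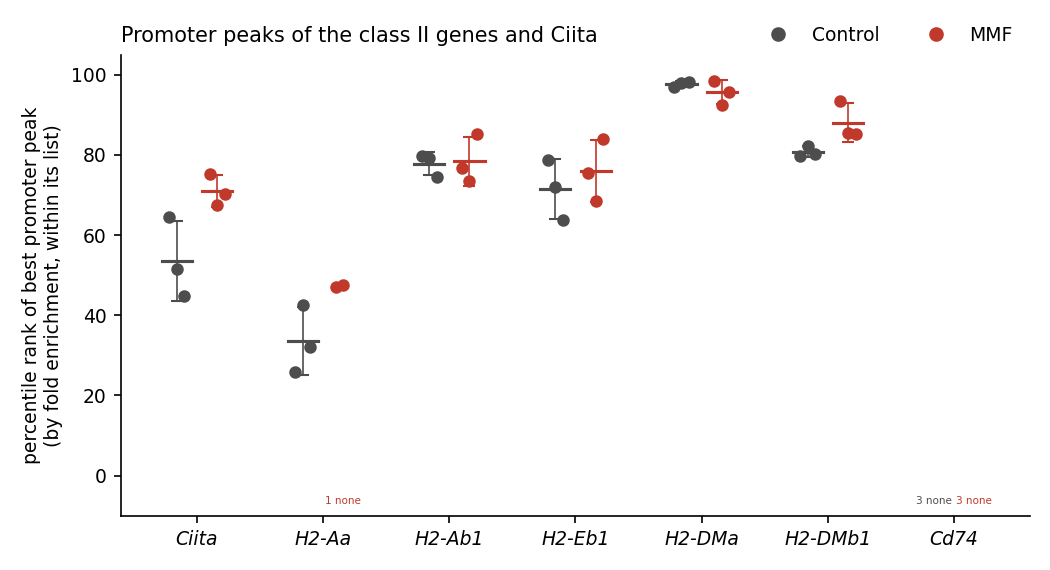
Percentile rank of the best peak within 1000 bp of a start for each member gene, by list, with mean and SD where all 3 lists of a group had a peak. Ciita and H2-DMb1 have MMF points above all Control points, H2-Aa lacks a peak in 1 MMF list, and Cd74 lacks a promoter peak in every list.

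Other genes of the class II pathway gave no call in the promoter fit. Of the 25 genes described, 20 had a promoter peak in all 6 lists, and 0 were called higher or lower. That fit called 0.0940% of all 11704 genes higher and 0% lower, so the lack of calls says little about 20 genes. Ifi30, which encodes a lysosomal thiol reductase, is not annotated as protein coding in the release used and was not measured. H2-DMb2, the paralog of H2-DMb1, ranked 85.6, 91.1 and 83.7 in Control and 87.9, 94.5 and 94.7 in MMF (adjusted p = 0.439). H2-Ob ranked between 15.6 and 55.6, H2-Oa had peaks in 3 lists at ranks of 6.93, 1.31 and 4.22, and H2-Eb2 had peaks in 2 MMF lists at ranks of 5.6 and 13.5. The genes of RFX, NF-Y and CREB1 all carried strong promoter peaks in every list, with Rfx5, Rfxap, Rfxank, Nfyb and Nfyc at ranks of 89.4 or above. Of these 7 genes, Nfyc (95.7 ± 2.0 to 93.5 ± 0.271) and Creb1 (81.2 ± 2.06 to 74.0 ± 2.24) had MMF ranks below every Control rank, and neither was called (adjusted p = 0.627 and 0.591).

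Among the regulators of Ciita and the interferon gamma route, Ifngr1, which encodes the ligand-binding chain of the interferon gamma receptor, ranked 88.2, 88.1 and 92.7 in Control and 80.7, 73.8 and 74.3 in MMF. The groups did not overlap, and limma did not call it (adjusted p = 0.247). Lgmn, an endosomal protease that trims the invariant chain, ranked 92.6, 91.5 and 90.5 against 83.4, 85.0 and 75.7 (adjusted p = 0.273). Over all 11704 promoters, 7.90% had MMF ranks above every Control rank and 9.70% below, against 2 and 0 of the 5 member genes, and 0 and 4 of the 20 pathway genes. Irf1, Irf4, Irf8, Spi1, Ifngr2 and Jak2 overlapped between groups.

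March1 encodes a ubiquitin ligase that removes surface class II. Its promoter peak ranked 30.6 and 11.1 in Control replicates 1 and 2, was absent in Control replicate 3, and ranked 56.6, 67.5 and 81.2 in MMF. Without a peak in every list it was not in the promoter fit, and with the missing peak set to rank 0 it was not called (0.89 ± 0.23 score units, limma adjusted p = 0.205). Cd86, a costimulatory ligand, ranked 74.2, 76.2 and 78.5 in Control and 93.5, 75.8 and 88.9 in MMF (adjusted p = 0.445). Cd40 and Cd80 had a promoter peak in 1 list each, at ranks of 10.3 and 6.9.

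**Figure D5:**
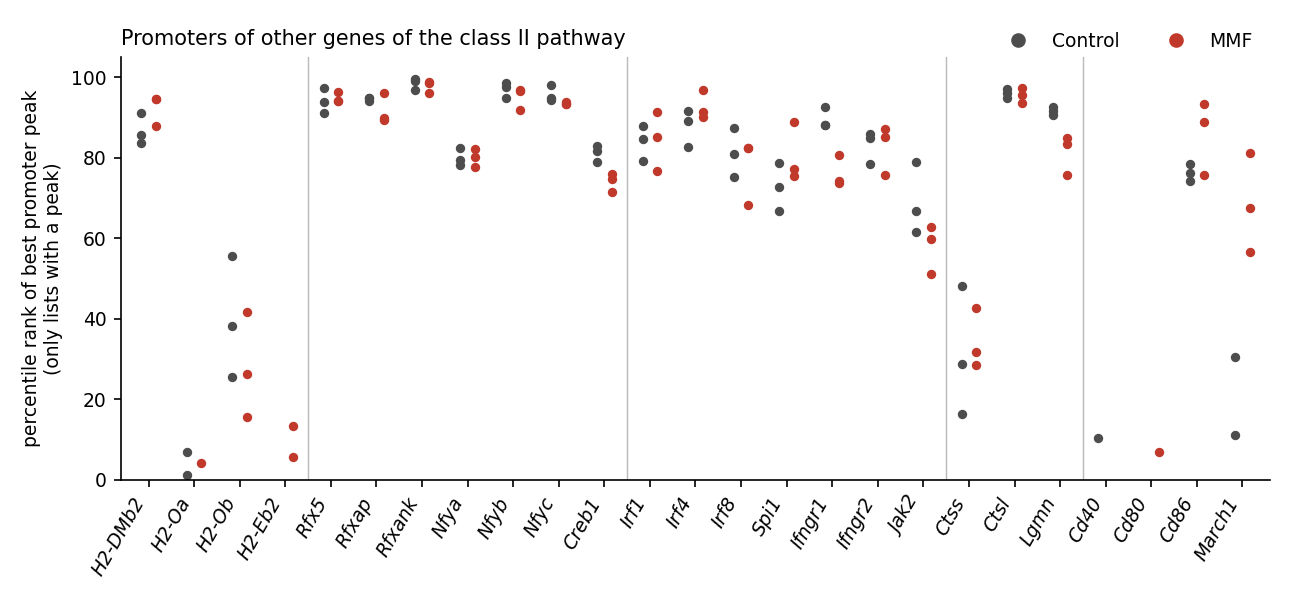
Percentile rank of the best promoter peak in each list for 25 other genes of the class II pathway, in 5 groups from class II genes at the left to costimulation and turnover at the right; a missing point is a list without a peak. Factors at class II promoters sit high in both groups, and March1 lacks a peak in 1 Control list.

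Genes of the class I route near or like the class II genes were likewise not called in the promoter fit, which called 0.0940% of all genes higher and 0% lower. Psmb9 and Tap1 share a promoter peak that ranked 90.9 to 97.1 in all lists, B2m ranked 96.3 to 99.2 and H2-K1 87.7 to 92.3, and groups overlapped at all 8 class I and proteasome genes. Of the other genes with a start in a window, Brd2, Clec16a, Dexi, H2-DMb2 and H2-Ob had a promoter peak in every list, and none was called.

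The genes whose 6 promoter ranks were closest to those of Ciita, by Euclidean distance over the 6 lists among 11694 genes outside the windows, were Vamp8 (distance 6.54 percentile points), Zfp945 (9.33) and Gm28044 (12.2). Vamp8 ranked 58.3, 51.6 and 46.5 in Control and 75.3, 66.4 and 69.2 in MMF. Closest to H2-DMa, the class II gene of highest mean rank, were Wwp1 (1.93), Calcoco1 (2.23) and Vps11 (2.47).

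Promoter peaks were also read at marker genes of the labelled cells and of other cells that could be present. Of 7 progenitor markers, Kit, Flt3, Cebpa, Spi1, Meis1 and Hoxa9 had a peak in every list, and Mpo, the myeloperoxidase gene of granulocyte progenitors, had none within 1000 bp of its start in any list. Of 5 T cell markers none had a peak in any list, and of 5 B cell markers Cd79a, Pax5 and Ms4a1 had none while Ebf1 had a peak in every list and Cd79b in 2 MMF lists. Of 5 dendritic cell markers Zbtb46 and Itgax had a peak in every list, Siglech had one in 1 Control list, and Xcr1 and Clec9a had none. Of 2 erythroid markers Klf1 had a peak in every list and Gata1 had none. Meis1 ranked 67.7, 70.2 and 51.6 in Control and 70.4, 74.9 and 73.2 in MMF, without a call (limma adjusted p = 0.587). Its groups were narrowly apart, at 70.2 and 70.4, and the other progenitor markers overlapped. The paper reports lower accessibility at the Meis1 promoter with MMF, from read profiles and not from ranks within lists. Of 4 macrophage markers, Csf1r, the receptor of the macrophage growth factor, ranked 1.9 and 14.7 in 2 Control lists, had no peak in the other, and ranked 63.9, 53.4 and 53.9 in MMF. With the missing peak set to rank 0, Csf1r was not called (0.71 ± 0.17 score units, limma adjusted p = 0.182). Adgre1 (74.6, 42.7 and 68.5 against 70.6, 79.6 and 72.2) and Cd68 (48.9, 49.9 and 62.9 against 60.2, 62.0 and 63.3) overlapped between the groups, and C1qa had no peak. With a missing peak counted as 0, summed ranks of the 4 were 107 to 131 in Control and 189 to 195 in MMF, a gap that rests on Csf1r. Summed in the same way, the B cell markers gave 56.8 to 78.5 in Control and 81.2 to 102 in MMF, where Ebf1 overlapped (78.5, 56.8 and 63.0 against 71.0, 81.2 and 78.7) and Cd79b counted as 0 in 4 lists. Summed ranks of the progenitor markers were 370 to 403 and 386 to 427. The part of any marker in the differences at Cd74, Ciita and March1 was not tested.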

How the data were processed

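ATAC-seq peaks from 3 Control and 3 MMF samples were used as deposited. Per the study's methods and the submitters' processing notes (FastQC, Trim Galore, Bowtie2, MACS2), the authors mapped reads to mm10 and called peaks on each sample separately. In the deposited lists, fold enrichment is a ratio of summit reads to local background, p and q are −log10 values, and the score column was not used. The lowest −log10 p was 3.01 to 3.02 and the shortest peak was 150 bp. The authors' comparison of reads between groups was not repeated, since it needs the reads.

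Peaks on chromosomes 1 to 19, X and Y were kept. Overlapping peaks (at least 1 bp) of the 6 lists were merged. Ranks were percentile ranks by fold enrichment, and limma 3.58.1 (R 4.3.3) was applied to normal scores of these ranks among regions present in every list, Benjamini-Hochberg over all 41182. Summit reads and local background were solved from fold enrichment, (reads + 1) / (background + 1), and the Poisson p. Whole reads (within 10% of the step between neighbouring whole numbers) came out for at least 99.998% of peaks in each list. Their log2, divided by the genome-wide background, was tested in the same way. Promoters were the best peak within 1000 bp of a start of a protein-coding gene (GENCODE M21 basic). Steps were tested on simulated data with known answers. Single values were compared by exact two-sided permutation tests.

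The alternatives were a stricter q (−log10 q of at least 2), equal list length, peaks covering 50% of a region, gene bodies alone or with 50000 bp, ranking by −log10 p, promoters of 500 bp, missing promoter peaks set to 0, centring, the replicate number as a block, and each sample left out. Normal scores over the whole list were added after seeing the data. Regions given in full were those at member promoters, gained or lost, called, or with the largest rise or fall in rank of a locus. Some genes of the lists are not reported here. The members and the gene lists were chosen with earlier results of these data known. At most 681 intervals were identical between any pair of lists. Python 3.11.15, pandas 2.3.3, scipy 1.17.1 and pysam 0.24.0 were used.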

Additional observations from a re-analysis of the deposited data

How the results depend on the processing

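With lists of equal length, the difference in peaks per list within the windows was -0.333, against 5.67 for whole lists, and 3 regions were gained or lost (2 gained, 1 lost, the Tcof1 region). None was gained or lost within gene bodies alone, and with a sample left out the count was 1 to 2. Centring gave 8 calls in summit reads in place of 1 (1 higher, 7 lower). It moved the median log2 difference of all shared regions from 0.17 to -0.19, and the part of this shift in the calls was not tested. Leaving a sample out gave 1 to 2 calls, with 2 without MMF replicate 3, where the Tcof1 region was lower. Normal scores over the whole list gave 1 call by rank, the Cd74 intronic region (1.05, adjusted p = 0.0244 by limma), against 0. For that region, summit reads stayed called with each sample left out (0.81 to 0.95, limma adjusted p = 0.0111 to 0.0216). With a sample left out, the difference in peaks was 4.67 to 6.67, and that in the share per 10000 peaks was -1.01 to -0.88.

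The replicate number did not pair the samples (correlations of deviations of same-numbered samples, -0.0026 to 0.0070 over 41182 regions). With the replicate number as a block, member calls were 0 by rank, 1 in summit reads and 0 at promoters, as without it, while calls by rank over all regions went from 594 higher and 175 lower to 0 and 0. Leaving out a sample left 0 to 9 such calls.

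Among single values, 281 kept direction and call, 22 reversed and 4 became calls. None that reversed was called, and the cause was not tested. The main region scores were -0.08 for the Brd2 and H2-DMa start, -0.25 for H2-Ab1 and 0.17 for H2-DMb1. They were -0.20 for the nearer and 0.13 for the other H2-Eb1 peak. Of these, scores over the whole list gave 0.25 for the Brd2 and H2-DMa start, 0.032 for H2-Ab1 and 0.10 for the nearer H2-Eb1 peak. Regions covered by 50% gave 0.037 for the first. Ranking by −log10 p gave region scores of -0.028 for H2-DMb1 and -0.043 for the other H2-Eb1 peak. Centred summit reads were -0.19 for H2-DMb1, -0.35 for H2-Ab1 and -0.20 for the other H2-Eb1 peak, with a median of -0.19 over all shared regions. With a sample left out, signs also changed for H2-Ab1 in the promoter fit (-0.10 to 0.21). Among region scores they changed for the Brd2 and H2-DMa start (-0.25 to 0.15), H2-DMb1 (-0.021 to 0.27) and the H2-Ob exon (-0.035 to 0.65). They also did so for the other H2-Eb1 peak (-0.073 to 0.30) and the nearer one (-0.49 to 0.021). In reads they changed for the H2-Ob intron (-0.20 to 0.042), H2-Ab1 (-0.11 to 0.10) and the nearer H2-Eb1 peak (-0.30 to 0.090). In the promoter fit H2-DMb1 kept its sign, at 0.27 to 0.64 with a sample left out and 0.23 when ranked by −log10 p. Few reads per peak limit these values.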
